A study of Homo sapiens with 8 samples.

Results

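MDA-MB-231 and Hs578T are human triple-negative breast cancer cell lines, and the libraries described here are the control ones: 2 control libraries of MDA-MB-231 against 2 control libraries of Hs578T, 4 of the 8 libraries of the series. They were chosen by their sample titles, which name the line and the word Control. The other 4 libraries, from cells of the same lines depleted of GPX1 by an siRNA according to their titles, were not used. In both groups the genotype tag reads control, no treatment, time or dose is given, and the labels do not state the kind of control, while the names of the deposited tables carry the tag siCON. The labels spell the second line HS578T and give all samples as epithelial cells of the breast. The line named in the source label changes by 1 from sample to sample while the cell line tag stays fixed, and the cell line tag was used. Each line is an established culture grown from 1 tumour, so a difference between the lines is a difference between 2 isolates and not between classes of tumours.

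Triple-negative means that a tumour lacks the oestrogen receptor, the progesterone receptor and amplified ERBB2. Within that class, both lines belong to the mesenchymal-like cultures that have moved away from epithelial identity. Epithelial cells are held together by junctions of cadherins, claudins and occludin and carry the keratins of simple or basal epithelium. In epithelial-mesenchymal transition, transcription factors of the SNAI, ZEB and TWIST families repress those genes, while vimentin, fibronectin, N-cadherin and matrix genes come up. MDA-MB-231 came from a pleural effusion and carries an activating mutation of BRAF. Hs578T came from a breast carcinosarcoma, a tumour with epithelial and connective-tissue-like parts, and carries an activating mutation of HRAS.

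The libraries held 13561724 to 14216365 estimated counts and detected 15719 to 15817 of 23686 listed genes, and 13990 genes had enough counts to be tested. Library pairs of a line had a Pearson correlation over genes of 0.99497 (Hs578T) and 0.99635 (MDA-MB-231) on the log2(TPM + 1) scale. Pairs from different lines had 0.869 to 0.8694. The first were taken over 13164 and 13160 genes above a count minimum. The second covered 17030 to 17039 genes detected in either library, so the gene sets differ. TPM, a level per transcript length scaled to a fixed total, is given below as mean ± SD of 2 libraries with Hs578T first, or as the value in each library. Differences are fitted log2 values, MDA-MB-231 minus Hs578T, so a negative value is higher in Hs578T, and each is given ± its standard error (SE). Genes named outside the rule set for naming, which are listed with the processing, were chosen after their values were seen. The labels do not say that the 2 libraries of a line were separate cultures, so the p-values cover the spread among these libraries alone, which may be technical.

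The lines differed in most genes. At an adjusted p under 0.05 by edgeR's quasi-likelihood test, 11600 of 13990 genes passed (82.9%), 5810 higher in MDA-MB-231 (41.5%) and 5790 higher in Hs578T (41.4%). With a fitted difference of over 2-fold as well, 2240 genes (16%) were higher in MDA-MB-231 and 2677 (19.1%) were higher in Hs578T, and "called" or "higher" below means this rule. In 12717 genes (90.9%) both libraries of a line lay on the same side of both of the other. Differences of over 8-fold were found for 810 genes (5.79%) higher in MDA-MB-231 and 932 (6.66%) higher in Hs578T. Those of over 32-fold numbered 470 (3.36%) and 580 (4.15%). The median absolute log2 difference was 0.662. Because so much differed, a list of genes is read below against these shares. On the deposited TPM scale the median of all tested genes moved by 0.178 and the split became 6935 against 4744 genes, so small differences have no sure sign.

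**Figure D1:**
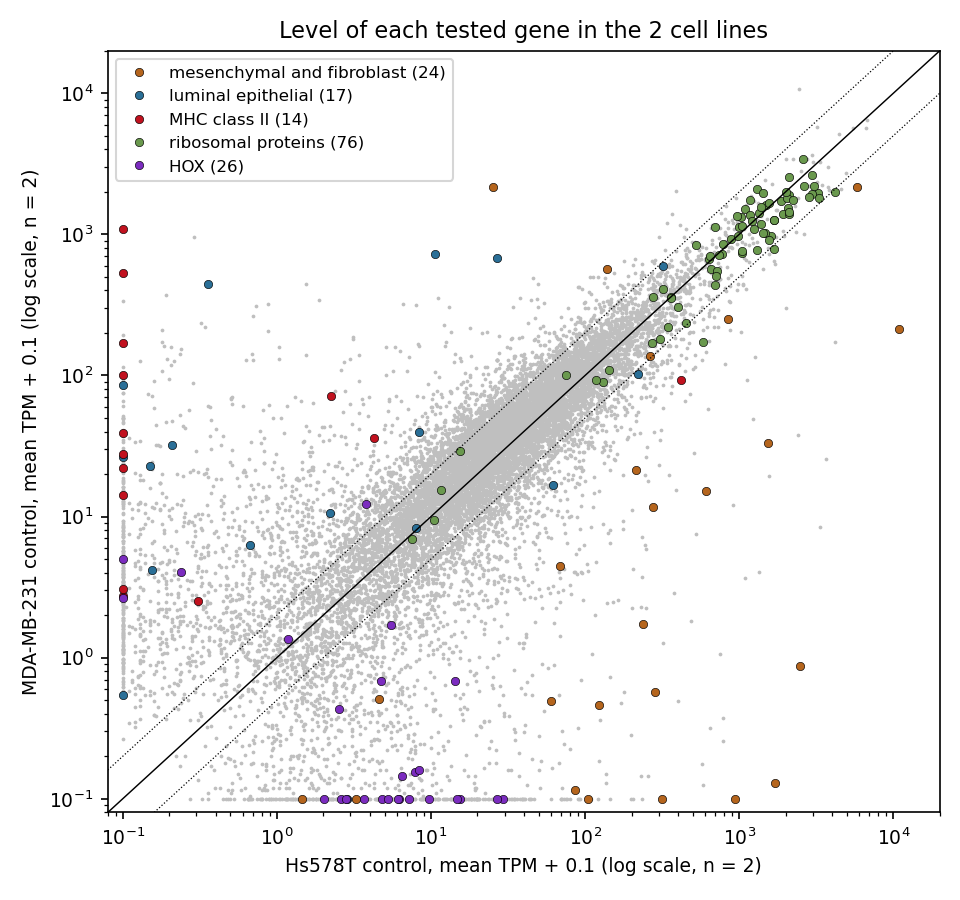
Mean TPM of the 13990 tested genes in the Hs578T controls (horizontal) and MDA-MB-231 controls (vertical), both plus 0.1 on log scales, with equal levels on the solid line and 2-fold differences on the dotted lines. Members of 5 gene lists are coloured: 22 of 24 mesenchymal genes lie below the line, all but S100A4 and NT5E, and 10 of 14 MHC class II genes at the left edge, while ribosomal protein genes follow the diagonal.

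Hs578T put a large share of its RNA into matrix. Its most abundant transcript by TPM was fibronectin, FN1, at 11039 and 10720.5 TPM in the Hs578T libraries against 220.0 and 205 TPM in the MDA-MB-231 libraries. By counts FN1 alone took 3.617 and 3.538% of the Hs578T libraries, whereas the leading gene of MDA-MB-231, the elongation factor EEF1A1, took 0.481 and 0.493%. TGFBI, a secreted matrix adaptor that binds collagen and integrins, was also among the 10 most abundant Hs578T genes, at 4155 ± 32 against 171 ± 3.6 TPM. The other 8 were ACTB, TMSB4X, VIM, GAPDH, ACTG1, LGALS1, TMSB10 and RPL8. In MDA-MB-231 the calcium-binding protein S100A6 led at 10608 and 10781 TPM, against 2399.9 and 2459.9 TPM in Hs578T, and FTL, TUBB, HSPA8, RPS18 and PKM stood beside ACTB, TMSB4X, GAPDH and TMSB10 in its top 10.

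The 20 largest differences higher in Hs578T were dominated by genes that MDA-MB-231 did not show at this depth. THY1, a surface glycoprotein of fibroblasts and other stromal cells, had 937 and 954 TPM in Hs578T and 0 counts in both MDA-MB-231 libraries, which makes it at least 9820-fold higher in Hs578T when a floor of 3 counts over the MDA-MB-231 group is used, as for all such bounds below. The collagen receptor subunit ITGA11 was at least 7090-fold higher and its relative ITGA8 at least 3330-fold. The prostacyclin synthase gene PTGIS was at least 5030-fold higher and the mechanosensitive channel gene PIEZO2 at least 4630-fold higher. The proteoglycan gene BGN (at least 3340-fold), the cadherins CDH13 (at least 3450-fold) and CDH6 (at least 2670-fold), and the alarmin cytokine TSLP (at least 1520-fold) followed. The others were POSTN, SLIT3, CLSTN2, SULF1, EPHB1, CXCL12, MEDAG, MYOCD, GDF6, PRAME and CBS. CBS, which starts the transsulphuration of homocysteine to cysteine, had 88.9 and 92.8 TPM in Hs578T and 0 counts in MDA-MB-231 (at least 1000-fold).

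The 20 largest in the other direction had another character. CD74, the invariant chain of MHC class II, led at 1073 and 1094 TPM in MDA-MB-231 and 0 counts in Hs578T (at least 4990-fold higher in MDA-MB-231). It was followed by HLA-DRA (at least 2070-fold), the EGF receptor ligand TGFA (at least 1280-fold), the myelin gene MBP (at least 1010-fold) and the calcium-binding protein gene CALB2 (at least 865-fold). EREG, CSF2RA, UCA1, SERPINB9, HLA-DRB1, HLA-DPA1, HLA-DPB1, FRAS1, GPAT2 and XKR8 were among the rest. Another 4 encode proteins of epithelial surfaces, barriers or junctions: FLG, a protein of cornified epidermis, at 16.8 and 15.5 TPM, the junction protein PLEKHA7, the desmosomal envelope protein EVPL and the membrane protein MALL. All 4 had 0 counts in Hs578T.

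**Figure D2:**
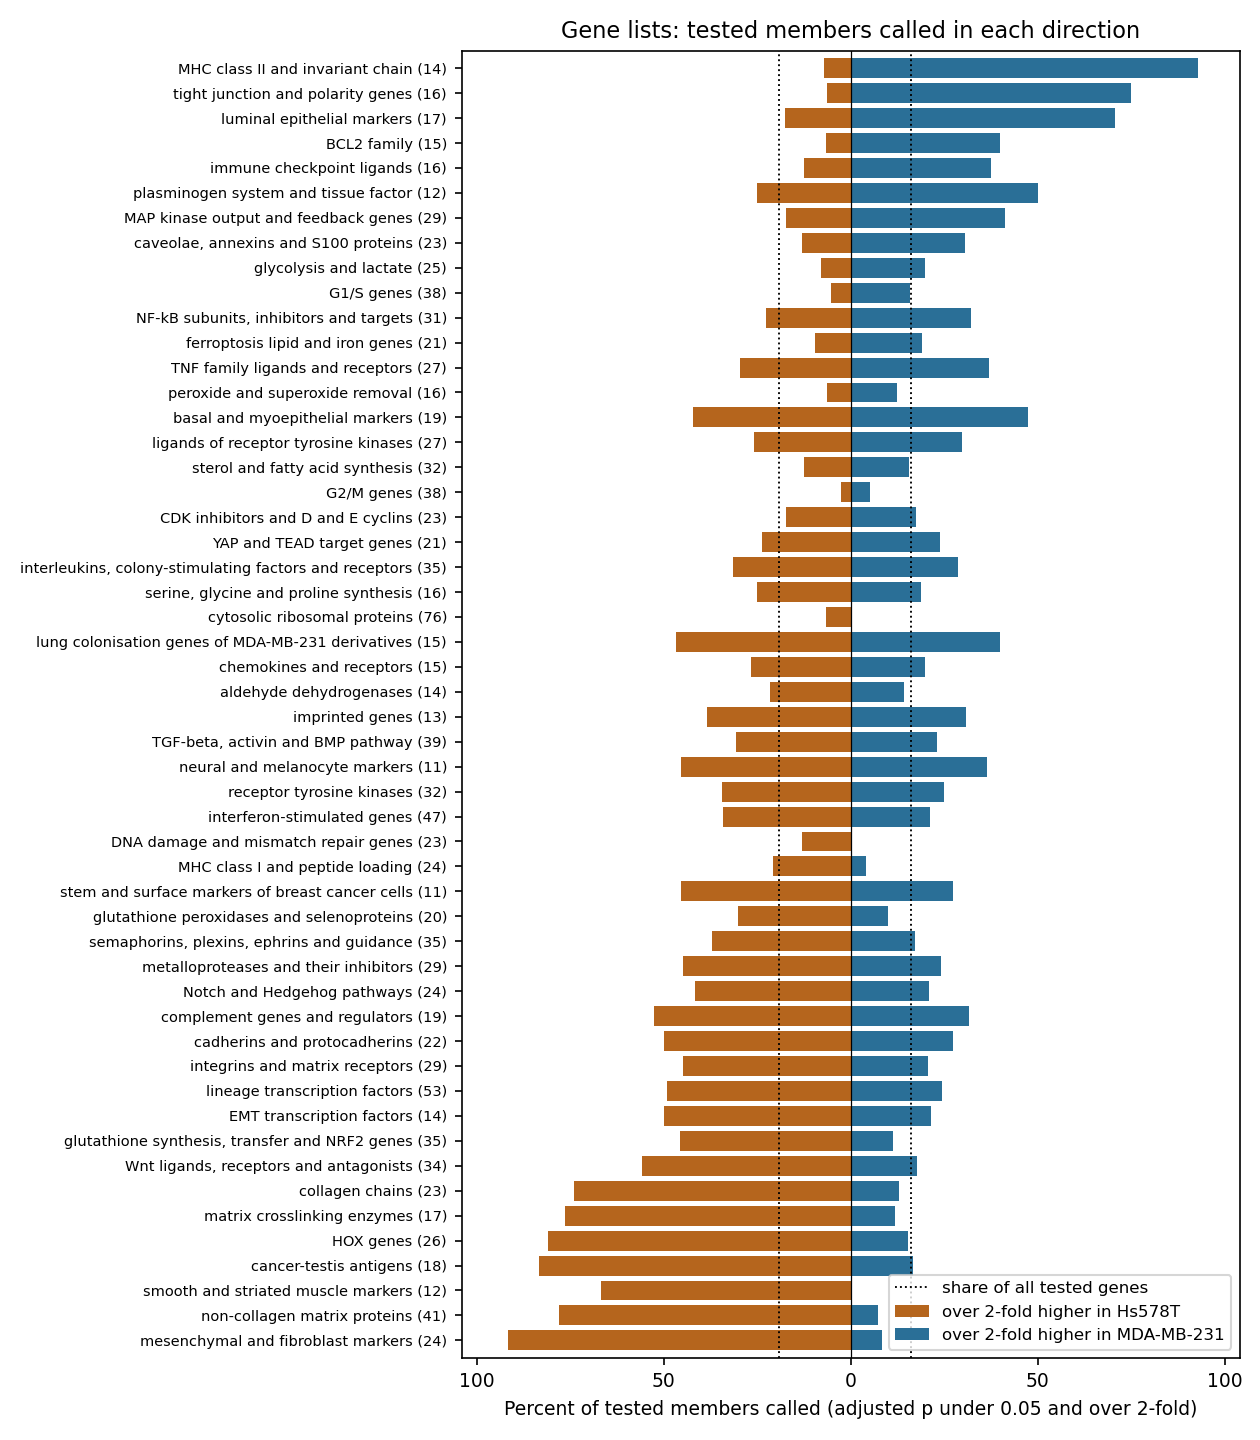
Percent of the tested members of each gene list (number tested in parentheses) that were called higher in Hs578T (left) or MDA-MB-231 (right), with dotted lines at the shares of all tested genes, 19.1% and 16%. The mesenchymal, matrix, muscle, cancer-testis and HOX lists extend to the left and the MHC class II, tight junction and luminal lists to the right.

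Among the hormone and growth factor receptors by which breast cancers are classed, the progesterone receptor gene was higher in Hs578T, at few counts. ESR1, the oestrogen receptor gene, had 1, 3, 1 and 0 counts in the Hs578T libraries followed by the MDA-MB-231 libraries. PGR, the progesterone receptor gene, had 50 and 37 counts in the Hs578T libraries against 2 and 0 in those of MDA-MB-231, a ratio of 53.1 with a 95% interval of 14.3 to 445 that covers counting error only. On log2(TPM + 1) the PGR difference was -0.75, under 2-fold. ERBB2 was at 31.8 ± 1.3 against 40.5 ± 1.6 TPM and was not called.

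Mesenchymal and fibroblast markers were nearly all higher in Hs578T: 22 of 24 tested members were called there and 2 in MDA-MB-231, with a median log2 difference of -6.62 (-5.79 with genes at 0 set to their bound), against 19.1% and 16% of all genes and a median of 0. The 3 untested members, PDPN, MFAP5 and TCF21, had 0 counts throughout. POSTN, periostin of injured and tumour stroma, was at 1724 and 1703 TPM in Hs578T and 0 and 0.060 TPM in MDA-MB-231. SPARC, a collagen-binding glycoprotein, was at 2476 ± 26 against 0.775 ± 0.19 TPM, and CDH2, N-cadherin, at 285 ± 7.4 against 0.475 ± 0.064 TPM. The libraries of the lines did not overlap for any of these. In bulk RNA, more cells with such transcripts and more RNA per cell cannot be told apart. PDGFRA, the platelet-derived growth factor receptor of fibroblasts, was at 86.2 ± 5.4 against 0.015 ± 0.021 TPM (a ratio of 7480, 95% interval 1340 to 295000), and PDGFRB at 68.4 ± 0.64 against 4.38 ± 0.021 TPM (-4.15 ± 0.06).

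Vimentin, the defining filament of mesenchymal cells, was abundant in both lines. VIM stood at 5823 and 5856 TPM in Hs578T and 2134 and 2201 TPM in MDA-MB-231, a log2 difference of -1.62 ± 0.03 (adjusted p 6.2e-22, edgeR). Both members higher in MDA-MB-231 are common mesenchymal markers as well. S100A4, also called fibroblast-specific protein, was at 25.1 ± 4.0 against 2181 ± 44 TPM (log2 difference 6.23 ± 0.06), and NT5E, the surface enzyme CD73 that makes adenosine, at 138 ± 6.4 against 572 ± 7.8 TPM (1.85 ± 0.03). Markers counted together as mesenchymal thus separated the lines in opposite directions.

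Collagen genes followed the same direction with exceptions. Of 23 tested chains 17 were higher in Hs578T and 3 in MDA-MB-231, with a median of -2.50. Fibrillar chains were far apart: COL1A1 was at 3345 ± 22 against 8.29 ± 0.071 TPM and COL3A1 at 257 ± 2.8 against 0.045 ± 0.021 TPM, and COL1A2 at 1087 ± 2.9 against 3.57 ± 0.49 TPM. COL6A3, a chain of the beaded filaments around cells, was at 3661 ± 6.7 against 25.4 ± 1.6 TPM. The basement membrane chain COL4A1 was at 506 ± 1.4 against 28 ± 1.7 TPM (log2 difference -4.37 ± 0.04). The 3 chains higher in MDA-MB-231 were COL13A1, a transmembrane collagen, at 16.2 ± 1.1 against 75.7 ± 0.89 TPM, and the low-level COL15A1 at 0.125 ± 0.12 against 2.06 ± 0.47 TPM and COL4A4 at 0.16 ± 0.13 against 0.81 ± 0 TPM.

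Among 41 tested non-collagen matrix proteins, 32 were higher in Hs578T and 3 in MDA-MB-231 (median -3.65). VCAN, the large hyaluronan-binding proteoglycan, was at 647 ± 20.1 against 0.215 ± 0.064 TPM. BGN and DCN, small leucine-rich proteoglycans of collagen fibrils, stood at 315 and 316 and at 107 and 102 TPM in Hs578T, and at 0 counts in MDA-MB-231. Tenascin C went the other way: TNC, a matrix protein of wound edges and metastatic niches, was at 11.4 ± 0.46 against 73.9 ± 0.15 TPM (log2 difference 2.50 ± 0.04), and MATN2, matrilin-2, at 1.77 ± 0.40 against 37.6 ± 0.31 TPM (4.22 ± 0.11). The summed TPM of the list was 27500 and 27200 in the Hs578T libraries and 3630 and 3590 in the MDA-MB-231 libraries.

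Enzymes that mature and crosslink collagen were mostly on the Hs578T side: 13 of 17 tested were higher in Hs578T and 2 in MDA-MB-231. PCOLCE, which speeds cleavage of the collagen propeptide, was at 229 ± 0.057 against 2.19 ± 0.19 TPM, and the lysyl oxidase-like LOXL3 at 244 ± 8.9 against 6.16 ± 0.28 TPM. Yet LOXL4, a paralogue with the same activity, was at 0.40 and 0.42 TPM in Hs578T and 68.6 and 71.8 TPM in MDA-MB-231 (log2 difference 7.22 ± 0.13). TGM2, a transglutaminase that crosslinks proteins through glutamine, was at 49 ± 0.092 against 349 ± 1.5 TPM (2.67 ± 0.04). LOX and LOXL2 were higher in Hs578T, at 247 ± 5.9 against 70.8 ± 0.35 TPM and 671 ± 2.6 against 294 ± 5.4 TPM, so members of the lysyl oxidase family were split between the lines.

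The transcription factors that drive epithelial-mesenchymal transition were split too. Of 14 tested, 7 were higher in Hs578T and 3 in MDA-MB-231. TWIST1 was at 12.6 and 13.9 TPM in Hs578T and had 0 counts in MDA-MB-231 (at least 94.8-fold), as had TWIST2 (at least 57.4-fold) and the mesenchyme factor FOXC2 (at least 646-fold, 86 and 93.1 TPM). PRRX1, a homeobox factor of limb and head mesenchyme, was at 126 ± 0.18 against 0.26 ± 0.071 TPM. In contrast, the repressors ZEB1 and SNAI1 were within 2-fold, ZEB1 at 47.7 ± 0.52 against 40.6 ± 0.94 TPM (log2 difference -0.42 ± 0.04) and SNAI1 at 4.54 ± 0.36 against 3.63 ± 0.23 TPM (-0.51 ± 0.23). SNAI1 no longer passed without any 1 library, with an adjusted p of up to 0.216 by edgeR. SNAI2 was at 116 ± 10.1 against 47.8 ± 3.4 TPM (-1.47 ± 0.07) and ZEB2 at 19.1 ± 1.8 against 5.46 ± 0.23 TPM (-1.95 ± 0.08). FOXQ1 (2.13 ± 1.0 against 15.6 ± 2.4 TPM) and the low KLF8 (0.17 ± 0.057 against 0.705 ± 0.064 TPM) were higher in MDA-MB-231.

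**Figure D3:**
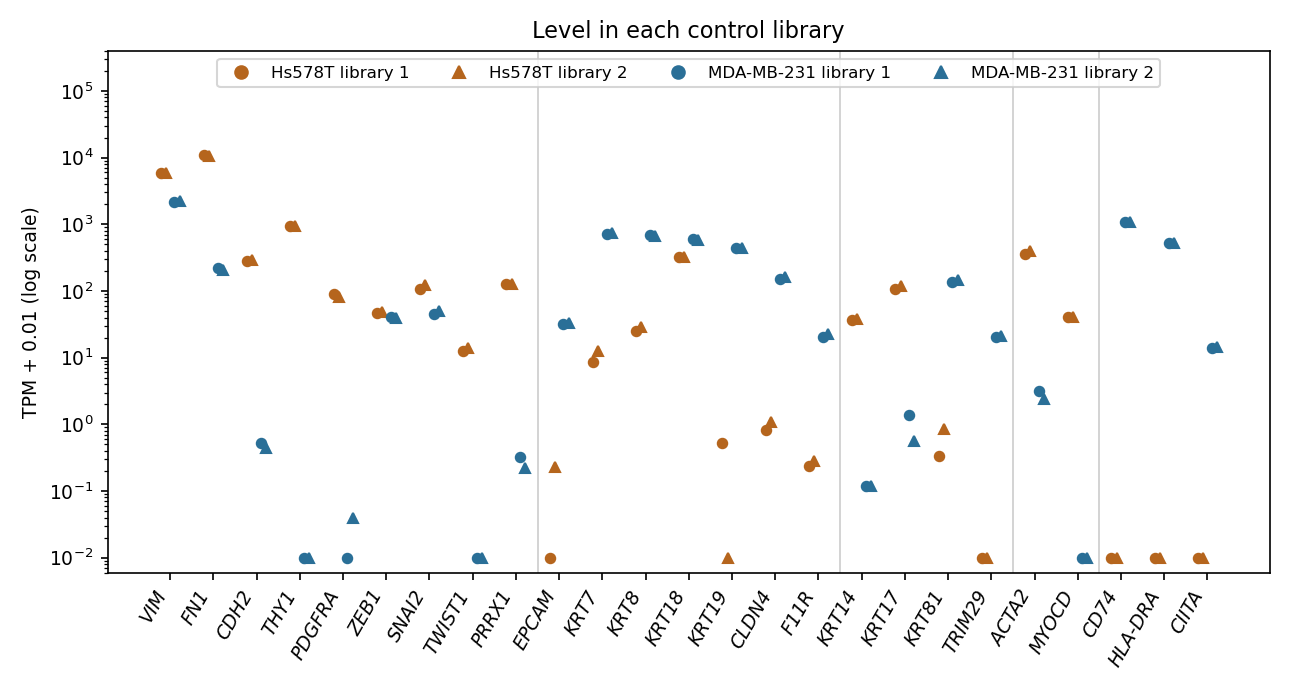
TPM plus 0.01 on a log scale in each of the 4 control libraries, for mesenchymal genes and transition factors, epithelial genes, basal genes, muscle genes and MHC class II genes from left to right. Circles and triangles are libraries 1 and 2 of a line; points at the lower edge are listed at 0.

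Epithelial genes were the mirror image, although E-cadherin was nearly off in both lines. Of 17 tested luminal markers 12 were higher in MDA-MB-231 and 3 in Hs578T, with a median of 4.24 (3.24 with genes at 0 set to their bound). CDH1 had 0 counts in both Hs578T libraries and 10 and 15 in MDA-MB-231, a mean of 0.445 ± 0.12 TPM there. EPCAM, the epithelial adhesion molecule, was at 0 and 0.22 TPM in Hs578T and 31.8 and 32.7 TPM in MDA-MB-231. The simple-epithelium keratins KRT8, KRT7 and KRT19 stood at 26.7 ± 2.3 against 678 ± 11 TPM, 10.6 ± 2.7 against 722 ± 14 TPM and 0.255 ± 0.36 against 444 ± 5.8 TPM. KRT18, the partner of KRT8, was abundant in both, at 322 ± 0.21 against 596 ± 9.3 TPM (log2 difference 0.70 ± 0.03), so the ratio of the pair differed between the lines.

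Other luminal genes were also higher in MDA-MB-231. LCN2, the iron-carrier binding lipocalin, was at 86.4 and 84 TPM there with 0 counts in Hs578T (at least 208-fold), and AGR2, a disulphide isomerase of mucus-secreting cells, at 26.8 and 25.6 TPM (at least 77.3-fold). SPDEF, an ETS factor of secretory epithelia, was at 0.050 ± 0.071 against 22.7 ± 0.88 TPM and the mucin MUC1 at 8.26 ± 1.2 against 39.7 ± 0.33 TPM. Other regulators of the epithelial programme were near 0 in both lines: ESRP1, GRHL2, OVOL1, OVOL2 and PRSS8 had at most 3 counts in any library, and RAB25 had 0 in all 4. The luminal factor GATA3 was at 7.9 ± 0.83 against 8.19 ± 0.17 TPM and did not pass. Of the 3 luminal genes higher in Hs578T, XBP1 was at 219 ± 3.5 against 102 ± 1.1 TPM, CD24 at 61.5 ± 0.76 against 16.7 ± 2.0 TPM, and the pioneer factor FOXA1 at 2.28 and 3.2 TPM with 0 counts in MDA-MB-231.

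Tight junction and polarity genes behaved alike, with 12 of 16 tested higher in MDA-MB-231 and 1 in Hs578T (median 3.58). CLDN4, a claudin of simple epithelia, was at 0.81 and 1.06 TPM in Hs578T and 153 and 164 TPM in MDA-MB-231. CLDN7 (at least 94.5-fold) and the coxsackievirus and adenovirus receptor CXADR (at least 214-fold) had 0 counts in Hs578T. F11R, a junctional adhesion molecule, was at 0.25 ± 0.028 against 21.4 ± 1.3 TPM, and the apical transport protein MAL2 at 0.20 ± 0.085 against 29 ± 0.24 TPM. TJP1, a scaffold protein, was at 31.2 ± 0.11 against 37 ± 0.24 TPM and did not pass. CLDN1 was the member higher in Hs578T, at 9.61 ± 1.2 against 4.95 ± 0.092 TPM, and came under 2-fold on log2(TPM + 1) (-0.83).

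The E-box CAGGTG, read as CACCTG on the other strand, is the sequence that the SNAI and ZEB repressors bind. RefSeq promoters of build GRCh38.p14, 250 bases before to 50 after a start, were searched on both strands. The motif was in 99 of 252 genes (39.3%) that were over 8-fold higher in MDA-MB-231 at 10 TPM or more and had a promoter, in 67 of 282 (23.8%) of those over 8-fold higher in Hs578T, and in 23.6% of all tested genes. Of single promoters, 20.6% of 35116 held it. It was present in 7 of 11 luminal and 8 of 15 tight junction genes with a promoter, and in 3 of 19 mesenchymal genes. A match of letters is no evidence of binding. The 7 luminal genes include FOXA1 and CD24, which were higher in Hs578T. As examples, promoter stretches of 3 genes higher in MDA-MB-231 and of FOXA1 follow, on the strand of the gene with the E-box in capitals. They lie at chr1:202010455-202010484 (plus strand), chr1:155192973-155193009 (minus strand), chr5:69492502-69492531 (plus strand) and chr14:37595354-37595383 (minus strand). ELF3 is an ETS factor of epithelia (0.57 ± 0.028 against 6.16 ± 0.078 TPM), MUC1 a membrane mucin and OCLN occludin (1.16 ± 0.33 against 4.67 ± 0.35 TPM).
ELF3: gaatatgcaaatCACCTGgggccaggagcc
MUC1: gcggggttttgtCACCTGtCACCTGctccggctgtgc
OCLN: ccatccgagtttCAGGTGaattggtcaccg
FOXA1: gcggccgccttgCAGGTGcacctcgggctt

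Basal markers divided into separate groups. Of 19 tested, 9 were higher in MDA-MB-231 and 8 in Hs578T. The basal keratins KRT14 and KRT17 were on the Hs578T side, at 37.2 ± 0.69 against 0.11 ± 0 TPM and 111 ± 8.7 against 0.965 ± 0.57 TPM, with the desmosomal cadherin DSC3 at 5.97 and 5.39 TPM and 0 counts in MDA-MB-231. LAMA3 and LAMB3, chains of a laminin that anchors epithelium to its basement membrane, were on the MDA-MB-231 side, at 1.94 ± 0.11 against 21 ± 1.6 TPM and 46.9 ± 0.18 against 256 ± 3.2 TPM. So were the hair keratin KRT81, at 0.585 ± 0.36 against 142 ± 5.3 TPM, TRIM29 (at least 196-fold) and the stratifin SFN, at 14 ± 0.97 against 125 ± 1.9 TPM. EGFR, often high in basal tumours, was at 27.1 ± 0.94 against 81.8 ± 1.5 TPM (log2 difference 1.41 ± 0.04). KRT5, KRT6A and KRT6B had at most 2 counts in any library. The median of the list changed sign under several settings and is not used.

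Muscle genes were mostly on the Hs578T side. Of 12 tested smooth and striated muscle markers 8 were higher in Hs578T and 0 in MDA-MB-231 (median -3.76). MYOCD, myocardin, the coactivator with which serum response factor switches on smooth muscle genes, was at 41.1 and 40.1 TPM in Hs578T with 0 counts in MDA-MB-231 (at least 1240-fold). The smooth muscle actins ACTG2 and ACTA2 stood at 559.6 and 590.1 and 363 and 397 TPM in Hs578T, against 0 and 0.15 and 3.16 and 2.35 TPM in MDA-MB-231. LMOD1, a nucleator of smooth muscle actin filaments, was at 44.8 ± 2.0 against 0.090 ± 0 TPM, and the calponin CNN1 was at 18.9 and 20.5 TPM with 0 counts in MDA-MB-231. MYH11, the smooth muscle myosin heavy chain of mature cells, was near 0 in both lines, at 0.355 ± 0.16 against 0.325 ± 0.18 TPM, and did not pass. The skeletal muscle genes MYOD1 and MYOG and the desmin gene DES had 0 counts in all 4 libraries.

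Serum response factor binds the CArG box, an element of a pair of C, a run of A or T and a pair of G. Of 12 muscle-list genes with a RefSeq promoter (GRCh38.p14) 4 held one in the 300 bases searched on both strands, against 1.64% of tested genes with a promoter and 1.29% of all promoters. The promoter stretch of ACTG2 is shown because it holds a pair of them, in capitals, and its gene was among the widest apart of the list. It lies at chr2:73892886-73892956 (plus strand).
ACTG2: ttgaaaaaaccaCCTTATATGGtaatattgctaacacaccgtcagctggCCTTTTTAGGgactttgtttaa

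MHC class II genes, which present antigen in immune cells and can be induced by interferon gamma in others, were expressed in MDA-MB-231 without any stimulus named in the labels. Of 14 tested members 13 were higher in MDA-MB-231, and the remaining one, the lysosomal reductase IFI30, was higher in Hs578T. The median was 10.74, or 7.0 with genes at 0 set to their bound. CIITA, the master coactivator of the family, was at 13.8 and 14.4 TPM in the MDA-MB-231 libraries and had 0 counts in both Hs578T libraries (at least 207-fold). HLA-DRA was at 533 and 527 TPM and HLA-DPA1 at 102 and 101 TPM, both with 0 counts in Hs578T. HLA-DMA, which loads peptide onto class II, was at 2.13 ± 0.79 against 71.7 ± 2.5 TPM, and its partner HLA-DMB at 39.9 and 38.4 TPM with 0 counts in Hs578T. HLA-DRB1 (169.8 and 168 TPM) and HLA-DRB5 (26.6 and 29 TPM) are near-identical copies, and how reads were split between them is uncertain. HLA-DQB1 was low in MDA-MB-231, at 2.63 and 2.67 TPM. The cathepsin CTSS, which trims the invariant chain, was at 4.14 ± 0.44 against 35.7 ± 1.7 TPM, and IFI30 at 421 ± 5.3 against 92.7 ± 1.8 TPM.

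CIITA binds no DNA itself and is recruited by factors on the X and Y boxes of these promoters. The cores ACNGATG and GATTGG, in that order on the strand of the gene with 26 to 30 bases between their starts, were in 5 of 35116 RefSeq promoters (0.0142%). They were in 4 of the 13 class II list genes with a promoter (GRCh38.p14). Searched on both strands and alone, the X core was in 7.65% and the Y core in 15.1% of promoters. The 4 stretches are shown because their members differ in level while sharing both cores, in capitals: chr6:32589884-32589931 (minus strand), chr6:32530367-32530414 (minus strand), chr6:32666735-32666782 (minus strand) and chr6:32953166-32953214 (minus strand).
HLA-DRB1: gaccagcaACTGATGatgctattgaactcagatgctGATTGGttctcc
HLA-DRB5: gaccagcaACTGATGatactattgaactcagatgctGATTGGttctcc
HLA-DQB1: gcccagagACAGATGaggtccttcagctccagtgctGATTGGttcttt
HLA-DMA: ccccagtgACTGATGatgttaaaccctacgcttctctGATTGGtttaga

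Their spacing was 28 bases in the first 3 and 29 in HLA-DMA. Levels in MDA-MB-231 ranged from 2.65 ± 0.028 TPM for HLA-DQB1 to 169 ± 1.1 TPM for HLA-DRB1, so genes holding the same cores differed widely in level within the line.

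Most leukocyte markers had too few counts to be tested in these libraries. Of 20 leukocyte markers 3 had enough counts to be tested, CD14 (7.57 ± 0.064 against 6.33 ± 0.13 TPM), CSF1R (7.3 ± 0.31 against 9.31 ± 0.88 TPM) and CD68 (92.7 ± 1.5 against 162 ± 4.6 TPM), and 0 were called. The defining leukocyte gene PTPRC had 3, 5, 3 and 1 counts, CD3E and MS4A1 had 0 in all 4 libraries, and CD79A had 0, 0, 1 and 1. Of 14 endothelial markers 7 were tested, with 5 higher in MDA-MB-231 and 1 in Hs578T. ESAM, an adhesion molecule of endothelium, was at 0.505 ± 0.13 against 61 ± 0.54 TPM and ROBO4 at 1.35 ± 0.035 against 21.5 ± 0.15 TPM, while ERG was at 5.27 and 5.36 TPM in Hs578T with 0 counts in MDA-MB-231. CDH5 and VWF, defining endothelial genes, had at most 1 count in any library.

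MHC class I genes were expressed in both lines. Of 24 tested class I and peptide loading genes 5 were higher in Hs578T and 1 in MDA-MB-231. B2M, the invariant light chain, was at 3353 ± 29.9 against 3248 ± 54 TPM, and the heavy chain HLA-B at 1587 ± 43 against 1679 ± 18 TPM. The exceptions were individual genes. ERAP2, a peptide-trimming aminopeptidase, was at 177 ± 3.7 against 9.24 ± 0.60 TPM (log2 difference -4.45 ± 0.05), the stress ligand ULBP1 at 6.95 ± 0.16 against 0.025 ± 0.035 TPM, and the stress ligand MICB at 15.4 ± 0.86 against 132 ± 2.0 TPM (2.91 ± 0.07), so ligands of one receptor, NKG2D, separated the lines in opposite directions. Among 16 tested checkpoint ligands 6 were higher in MDA-MB-231 and 2 in Hs578T. CD274, PD-L1, was at 2.78 and 2.55 TPM in Hs578T and 37.1 and 35.8 TPM in MDA-MB-231 (log2 difference 3.58 ± 0.10, adjusted p 4.41e-18, edgeR). IDO1, a tryptophan-degrading enzyme, was at 14.5 ± 0.12 against 1.1 ± 0.28 TPM.

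Interferon-stimulated genes did not move as a block. Of 47 tested, 16 were higher in Hs578T and 10 in MDA-MB-231. IFI44L (28.4 ± 1.2 against 1.57 ± 0.24 TPM), IFI6 (248 ± 7.9 against 26.2 ± 0.64 TPM) and MX2 (25.5 ± 1.0 against 3.38 ± 0.90 TPM) were on the Hs578T side. On the MDA-MB-231 side were HERC5 (0.71 ± 0.24 against 56.9 ± 0.83 TPM), IFIT2 (5.54 ± 0.84 against 107 ± 0.057 TPM) and BST2 (22.9 ± 1.9 against 202 ± 2.4 TPM). HERC6 (13 ± 0.54 against 32.9 ± 0.49 TPM), the paralogue of HERC5, was on the same side. Of the oligoadenylate synthetases OAS1 was higher in Hs578T (34.1 ± 0.71 against 8.29 ± 0.19 TPM) and OASL in MDA-MB-231 (9.83 ± 1.2 against 59.6 ± 4.5 TPM). IRF9 and STAT2 are parts of a factor downstream of the interferon receptors. IRF9 was at 74.4 ± 7.1 against 15 ± 2.3 TPM (log2 difference -2.50 ± 0.10) and STAT2 at 44.7 ± 1.2 against 34.1 ± 0.65 TPM (-0.58 ± 0.06).

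Inflammatory genes were split gene by gene. Among 31 tested NF-kB subunits, inhibitors and targets, 10 were higher in MDA-MB-231 and 7 in Hs578T. The acute-phase genes SAA1 and SAA2, near-identical copies whose reads may have been shared out, were at 0.19 ± 0.27 against 959.8 ± 14 TPM and 0.090 ± 0 against 369 ± 1.3 TPM. The monocyte chemokine CCL2 was at 1301 and 1389 TPM in Hs578T and 3.02 and 4.9 TPM in MDA-MB-231, and IL8, a neutrophil chemokine, at 806 ± 34 against 120.3 ± 5.4 TPM. CXCL1, which acts on the same receptor as IL8, went the other way, at 0 and 0.17 TPM in Hs578T and 166 and 159 TPM in MDA-MB-231 (a ratio of 1730, 95% interval 311 to 68500). CXCL12, the stromal ligand of CXCR4, was at 583 ± 26 against 0.025 ± 0.035 TPM, while CXCR4 itself was low in both, at 2.47 ± 1.2 against 2.81 ± 0.73 TPM. Of 15 tested chemokines and receptors 4 were higher in Hs578T and 3 in MDA-MB-231.

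Cytokines showed the same division, with 11 of 35 tested interleukin and colony-stimulating factor genes higher in Hs578T and 10 in MDA-MB-231. TSLP was at 148 and 143 TPM in Hs578T with 0 counts in MDA-MB-231. CSF2RA, the alpha chain of the GM-CSF receptor, was at 115 and 116 TPM in MDA-MB-231 with 0 counts in Hs578T (at least 653-fold), and its ligand CSF2 was detected in both, at 40.5 ± 4.5 against 134 ± 5.1 TPM. IL18 was at 23.1 and 24.1 TPM (at least 81.9-fold) and CSF3 at 0.065 ± 0.092 against 32 ± 1.5 TPM. IL6ST, the shared signalling chain of the IL6 family, was at 582 ± 19 against 211 ± 3.2 TPM, and IL32 at 262 ± 24 against 71.1 ± 1.2 TPM. In the TNF family, 10 of 27 tested genes were higher in MDA-MB-231 and 8 in Hs578T. CD40 was at 0.060 ± 0.085 against 59.1 ± 2.1 TPM, TNFSF10, the death ligand TRAIL, at 1.45 ± 0.31 against 139 ± 12 TPM, and FAS at 41.7 ± 3.9 against 8.44 ± 0.49 TPM. CD70 was at 15.9 and 19.1 TPM in Hs578T with 0 counts in MDA-MB-231.

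Complement genes had 10 of 19 tested members higher in Hs578T and 6 in MDA-MB-231. Among them the classical-pathway proteases C1R and C1S were at 140.5 ± 5.0 against 7.59 ± 0.74 TPM and 68.7 ± 2.5 against 2.37 ± 0.48 TPM. The central component C3 was at 3.31 ± 0.39 against 139.7 ± 2.8 TPM (log2 difference 5.21 ± 0.06), and C2, whose product cleaves it, at 0.535 ± 0.15 against 11.9 ± 1.3 TPM. The surface inhibitors were also split, with CD59 at 317 ± 1.2 against 126 ± 0.96 TPM and CD55 at 31.3 ± 0.11 against 111 ± 0.80 TPM.

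Several ligands of the EGF receptor were higher in MDA-MB-231. TGFA was at 96.2 and 93.2 TPM and EREG at 52.2 and 48 TPM in MDA-MB-231, both with 0 counts in Hs578T. AREG was at 0 and 0.16 TPM in Hs578T and 105 and 109 TPM in MDA-MB-231, and HBEGF at 19.4 ± 2.5 against 114 ± 5.6 TPM (log2 difference 2.36 ± 0.08). Over all 27 tested ligands of receptor tyrosine kinases, 8 were higher in MDA-MB-231 and 7 in Hs578T. GAS6, which binds AXL, was at 21.2 ± 1.6 against 198 ± 3.7 TPM, and AXL was high in both lines, at 565 ± 3.2 against 723 ± 0.59 TPM. Ligands higher in Hs578T included ANGPT1 (47.1 ± 3.3 against 2.54 ± 0.49 TPM) and the fibroblast growth factor FGF2 (15.5 ± 0.092 against 2.1 ± 0.078 TPM). VEGFA was within 2-fold, at 324 ± 11 against 225 ± 2.8 TPM.

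Receptor tyrosine kinases had 11 of 32 tested members higher in Hs578T and 8 in MDA-MB-231. EPHB1 (70.6 and 68.4 TPM) and the neurotrophin receptors NTRK2 (8.02 and 7.5 TPM) and NTRK3 (10.1 and 8.43 TPM) had 0 counts in MDA-MB-231. In the other direction INSR, the insulin receptor gene, was at 8.59 and 8.17 TPM in MDA-MB-231 with 0 counts in Hs578T (at least 240-fold). IGF1R, its closest relative, was at 2.66 ± 0.25 against 6.56 ± 0.25 TPM. MST1R was at 0.060 ± 0.085 against 11.4 ± 0.20 TPM, MERTK at 0.595 ± 0.050 against 15.6 ± 0.33 TPM, and EPHA2 at 123 ± 1.7 against 249.7 ± 4.8 TPM, with a fitted difference within 2-fold. The collagen receptors DDR1 and DDR2 differed in kind: DDR2 was at 60.1 ± 0.13 against 0.39 ± 0.085 TPM, and DDR1 at 37.9 ± 2.5 against 46.9 ± 0.72 TPM did not pass.

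Output and feedback genes of the MAP kinase cascade, which mutant RAS drives, were higher in MDA-MB-231 for 12 of 29 tested and in Hs578T for 5 (median 0.76). DUSP4 and DUSP6, phosphatases of the dual-specificity family, led: DUSP4 was at 0.91 and 0.94 TPM in Hs578T and 132 and 130.4 TPM in MDA-MB-231, and DUSP6 at 10.4 ± 0.25 against 106 ± 6.4 TPM. DUSP5 (9.38 ± 0.29 against 50.8 ± 3.4 TPM) and the receptor feedback inhibitor SPRY4 (7.22 ± 0.064 against 35.1 ± 0.83 TPM) were higher in MDA-MB-231 as well. FOSL1, a stable output of ERK, was at 304 ± 24 against 590.5 ± 0.78 TPM and was within 2-fold, and HMGA1, an architectural chromatin protein, was at 366 ± 7.8 against 1387 ± 16 TPM. Among the 5 genes higher in Hs578T were EGR1, an immediate-early factor, at 22.4 and 19.9 TPM in Hs578T and 2.31 and 3.4 TPM in MDA-MB-231 and JUNB at 146 ± 0.96 against 31.5 ± 1.8 TPM. DUSP1, another phosphatase, was at 27.9 ± 0.35 against 13.7 ± 0.66 TPM, FOSB at 0.835 ± 0.021 against 0.215 ± 0.035 TPM and DUSP2 at 2.64 ± 0.17 against 1.16 ± 0.13 TPM. DUSP1, FOSB and DUSP2 came under 2-fold on log2(TPM + 1), at -0.98, -0.6 and -0.75. Of other immediate-early genes IER3 was higher in MDA-MB-231, at 449 ± 19 against 1096 ± 23 TPM, and FOS and JUN were not called.

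Among the TGF-beta, activin and BMP genes, 12 of 39 tested were higher in Hs578T and 9 in MDA-MB-231. BMP2 was at 14.2 ± 1.1 against 0.44 ± 0.23 TPM and its paralogue BMP4 at 6.5 ± 0.24 against 321 ± 6.0 TPM (log2 differences -5.17 ± 0.23 and 5.51 ± 0.07). NOG, an inhibitor of both, was at 35.3 and 40.8 TPM in MDA-MB-231 with 0 counts in Hs578T. The ID genes, direct targets of BMP signalling, were split: ID1 was at 135 ± 2.4 against 492 ± 27 TPM, ID2 at 88.2 ± 3.5 against 3.8 ± 0.11 TPM and ID3 at 444 ± 17 against 107 ± 6.0 TPM. ENG, a co-receptor, was at 124 ± 1.3 against 0.365 ± 0.021 TPM, GDF6 was at 74 and 72.3 TPM in Hs578T with 0 counts in MDA-MB-231, and TGFBR1 was at 6.21 ± 0.59 against 37.9 ± 0.42 TPM.

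Wnt genes were mostly on the Hs578T side, with 19 of 34 tested higher there and 6 in MDA-MB-231 (median -1.30). WNT5A, a ligand of the non-canonical branch, was at 51.9 and 51.6 TPM in Hs578T and 0.11 and 0.060 TPM in MDA-MB-231. TCF7, a nuclear effector, was at 57.1 ± 0.57 against 3.04 ± 0.39 TPM, the receptor FZD8 at 42.4 ± 1.3 against 3.15 ± 0.25 TPM, and the antagonists SFRP1 and DKK3 at 15.2 ± 0.37 against 0.33 ± 0.13 TPM and 97.4 ± 0.49 against 2.45 ± 0.52 TPM. The antagonist DKK1 was higher in MDA-MB-231, at 12.2 ± 0.16 against 161 ± 7.4 TPM (log2 difference 3.52 ± 0.08). Of the Notch and Hedgehog genes, 10 of 24 tested were higher in Hs578T and 5 in MDA-MB-231. SMO, the transducer without which Hedgehog signalling does not reach GLI, was at 14.4 and 16.4 TPM in Hs578T with 0 counts in MDA-MB-231 (at least 251-fold), while the receptor PTCH1 was at 0.82 ± 0.18 against 7.36 ± 0.62 TPM. The ligand JAG1 was at 183 ± 2.6 against 52.3 ± 0.13 TPM and its paralogue JAG2 at 0.030 ± 0 against 5.3 ± 0.12 TPM. NOTCH3, the Notch receptor of vascular smooth muscle, was at 20.7 ± 0.37 against 0.23 ± 0.14 TPM, and NOTCH2 was abundant in both, at 102 ± 2.4 against 116 ± 4.3 TPM.

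YAP and TEAD targets were even, with 5 of 21 tested higher in each line. ANKRD1 was at 3.02 ± 0.54 against 180.2 ± 0.042 TPM and AJUBA at 21.7 ± 2.2 against 103 ± 3.5 TPM, both higher in MDA-MB-231. The most used readouts, CTGF and CYR61, were within 2-fold: CTGF was at 225 ± 8.9 against 142 ± 3.7 TPM and CYR61 at 492 ± 4.6 against 885 ± 2.8 TPM. WWTR1, the gene of the coactivator TAZ, was at 128 ± 4.1 against 40.7 ± 0.050 TPM, and AMOT had 2.72 and 2.51 TPM in Hs578T and 0 counts in MDA-MB-231. YAP1 was at 124 ± 3.2 against 184 ± 3.2 TPM.

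Proteases that open matrix were distributed over both lines, 13 of 29 tested metalloproteases and inhibitors being higher in Hs578T and 7 in MDA-MB-231. MMP2, gelatinase A, was at 783 and 780.4 TPM in Hs578T and 0.21 and 0.10 TPM in MDA-MB-231. MMP14, which activates the MMP2 proenzyme at the cell surface, was at 108 ± 3.2 against 380.5 ± 2.5 TPM (log2 difference 1.62 ± 0.03), so enzyme and activator were highest in different lines. The interstitial collagenase MMP1 was at 0.73 ± 0.11 against 35.7 ± 2.7 TPM, ADAM8 at 0.030 ± 0.042 against 126 ± 0.98 TPM and ADAM12 at 152 ± 2.9 against 2.37 ± 0.21 TPM. ADAMTS2, which removes the collagen N-propeptide, was at 137 ± 2.2 against 0.030 ± 0 TPM, and the inhibitor TIMP3 at 867 ± 26 against 208 ± 0.72 TPM. Genes of the plasminogen system were higher in MDA-MB-231 for 6 of 12 tested and in Hs578T for 3. Tissue factor, F3, was at 108 ± 0.25 against 498 ± 15 TPM, the thrombin receptor relative F2RL1 at 17.9 ± 0.092 against 215 ± 8.3 TPM, and thrombomodulin, THBD, at 1.34 ± 0.099 against 66.2 ± 0.56 TPM. Urokinase, PLAU, was within 2-fold, at 339 ± 26 against 538 ± 8.4 TPM, whereas the thrombin inhibitor SERPINE2 was at 1563 ± 25 against 19.4 ± 0.40 TPM.

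Integrin chains were shared out between the lines. Of 29 tested integrins and matrix receptors 13 were higher in Hs578T and 6 in MDA-MB-231. Of the first, the fibronectin receptor chain ITGA5 was at 1030 ± 13 against 202 ± 0.15 TPM and ITGA4 at 19.5 ± 0.93 against 0.185 ± 0.11 TPM. The laminin receptor chains ITGA6 and ITGB4, which pair in hemidesmosomes, were at 7.95 ± 0.31 against 313 ± 10.4 TPM and 0.26 ± 0.14 against 60.1 ± 0.41 TPM (log2 differences 5.10 ± 0.05 and 7.65 ± 0.13). ITGB1, the common beta chain, was at 1977 ± 48 against 1442 ± 32 TPM. LAMA3 and LAMB3, chains of a laminin that this pair binds, were higher in the same line. Of 22 tested cadherins, protocadherins and catenins 11 were higher in Hs578T and 6 in MDA-MB-231. CDH4, R-cadherin, was at 0.030 ± 0.042 against 12.6 ± 0.21 TPM. CDH11, a cadherin of osteoblasts and stroma, was at 264 ± 3.6 against 138 ± 1.0 TPM. It came under 2-fold on log2(TPM + 1) (-0.93) and log2(TPM + 0.1) (-0.94). CTNNB1, beta-catenin, was at 337 ± 14 against 423 ± 4.3 TPM.

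Genes published as marking lung-colonising derivatives of MDA-MB-231 were higher in Hs578T for 7 of 15 tested and in MDA-MB-231 for 6. SPARC, MMP2, VCAM1 (20.5 ± 2.2 against 0.905 ± 0.11 TPM), LTBP1 (349.7 ± 15 against 19.6 ± 0.33 TPM) and FSCN1 (156 ± 2.4 against 25 ± 2.1 TPM) were higher in Hs578T. EREG, CXCL1, MMP1, KYNU (1.52 ± 0.52 against 40.5 ± 3.3 TPM), TNC and ID1 were higher in MDA-MB-231. Of 9 tested bone colonisation genes 4 were higher in Hs578T and 2 in MDA-MB-231, with ADAMTS1 at 164 ± 2.6 against 2.46 ± 0.26 TPM, PTHLH at 10.3 ± 0.20 against 2.07 ± 0.14 TPM and IL11 at 31.3 ± 4.0 against 76.9 ± 3.2 TPM (under 2-fold without Hs578T library 1, at 0.97). Guidance genes had 13 of 35 tested higher in Hs578T and 6 in MDA-MB-231: SEMA5A was at 49.98 ± 0.19 against 0.18 ± 0.028 TPM, ROBO1 at 79.6 ± 1.3 against 3.19 ± 0.33 TPM and its ligand SLIT3 at 38.5 and 40.1 TPM with 0 counts in MDA-MB-231, while SEMA4D was at 1.58 ± 0.042 against 28.6 ± 2.7 TPM.

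Surface genes used to sort breast cancer stem cells differed one by one. CD44 was abundant in both lines, at 612 and 598 TPM in Hs578T and 646 and 621 TPM in MDA-MB-231. CD24, which such sorts exclude, was at 61.5 ± 0.76 against 16.7 ± 2.0 TPM. ITGA6, EPCAM and NES (0.445 ± 0.11 against 4.73 ± 0.48 TPM) were higher in MDA-MB-231, and THY1, ALDH1A3 (201 ± 1.3 against 11 ± 0.42 TPM), PROCR (82.3 ± 1.4 against 38.9 ± 0.11 TPM) and LGR5 (8.23 ± 1.1 against 0.88 ± 0.057 TPM) in Hs578T. Caveola, annexin and S100 genes were higher in MDA-MB-231 for 7 of 23 tested and in Hs578T for 3. ANXA3 was at 0.24 ± 0.17 against 220.1 ± 9.3 TPM, S100A2 at 6.15 ± 0.58 against 149 ± 0.50 TPM, ANXA2 at 929 ± 23 against 938 ± 8.2 TPM and ANXA6 at 636 ± 14 against 278 ± 5.7 TPM.

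HOX genes, which record position along the body axis, had a different pattern in each line. Of 26 tested, 21 were higher in Hs578T and 4 in MDA-MB-231, with a median of -7.77 (-5.19 with genes at 0 set to their bound). In the HOXA cluster HOXA2, HOXA3, HOXA4, HOXA5, HOXA9, HOXA10 and HOXA11 had 0 counts in MDA-MB-231. HOXA9 was at 15.1 and 15.5 TPM and HOXA10 at 15.4 and 13.8 TPM in Hs578T. HOXA13, at the end of the cluster, was the exception, at 1.08 ± 0.29 against 1.25 ± 0.28 TPM, and did not pass. In the HOXC cluster HOXC10 was at 29.2 and 29.3 TPM in Hs578T with 0 counts in MDA-MB-231, and HOXC6 at 14.3 ± 0.49 against 0.585 ± 0.23 TPM.

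In MDA-MB-231 the detected HOX genes were few. HOXB9 was at 3.75 and 3.6 TPM in Hs578T and 11.5 and 12.7 TPM in MDA-MB-231 (log2 difference 1.53 ± 0.15). The HOXD genes HOXD3 (2.48 and 2.64 TPM) and HOXD4 (5.04 and 4.78 TPM) had 0 counts in Hs578T, and HOXD1 was at 0.14 ± 0.071 against 3.98 ± 0.52 TPM. The noncoding RNAs HOTAIR (3.05 and 4.12 TPM) and HOTAIRM1 (26.3 and 27.2 TPM), which lie antisense to HOXC and HOXA genes, had 0 counts in MDA-MB-231. No strand setting is given, so reads of an antisense gene and its partner cannot be told apart.

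**Figure D4:**
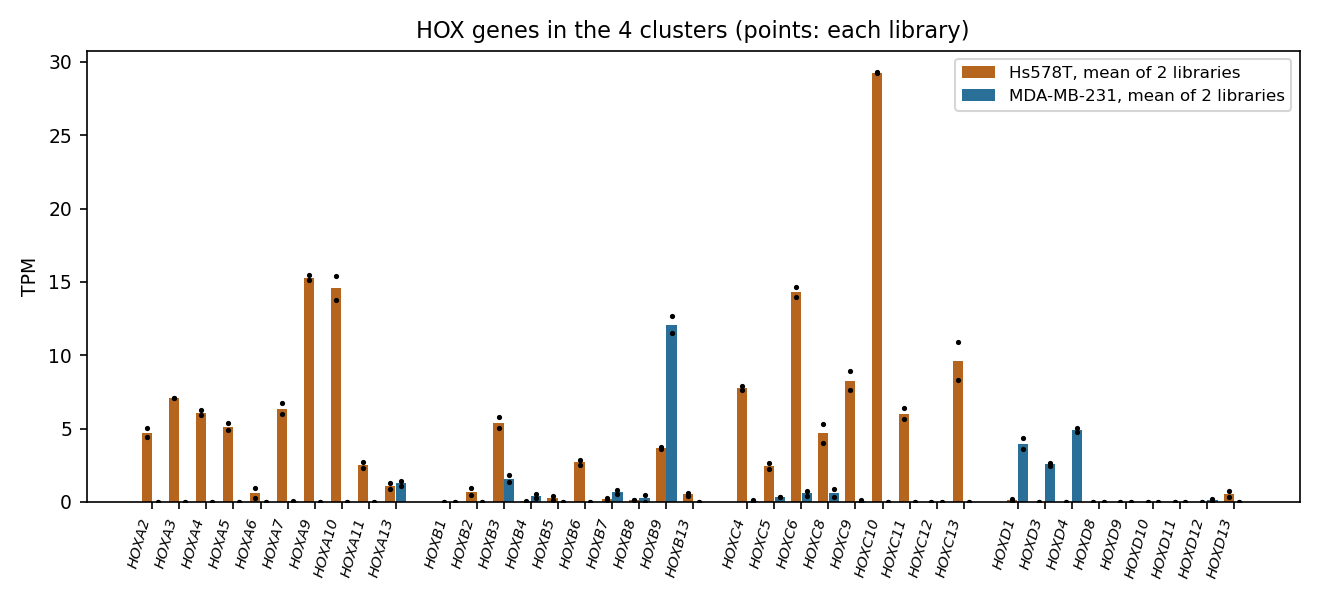
TPM of HOX genes in the order of their 4 clusters, bars for the mean of 2 control libraries of each line and points for each library. Hs578T bars fill the HOXA and HOXC clusters up to 29.3 TPM at HOXC10, and MDA-MB-231 shows HOXB9 and the first HOXD genes.

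Other lineage factors repeated this division: 26 of 53 tested were higher in Hs578T and 13 in MDA-MB-231. TBX3, a T-box factor of mammary and limb buds, was at 72.8 and 69.5 TPM in Hs578T and 0 and 0.040 TPM in MDA-MB-231, and its neighbour in the family TBX2 at 10.03 ± 0.92 against 0.025 ± 0.035 TPM. FOXD1 (18.7 and 17.6 TPM, 0 counts in MDA-MB-231), EYA2 (8.55 ± 0.42 against 0.035 ± 0.050 TPM), PRRX2 (13.4 ± 1.1 against 0.070 ± 0.099 TPM) and SOX4 (53.2 ± 1.6 against 4.66 ± 0.092 TPM) were on the same side. EHF, an ETS factor of epithelia, was at 0.070 and 0.040 TPM in Hs578T and 72.5 and 70.5 TPM in MDA-MB-231. PAX8 (0.255 ± 0.22 against 10.1 ± 0.014 TPM), TBX1 (0.365 ± 0.21 against 6.17 ± 0.66 TPM) and KLF5 (3.92 ± 0.25 against 26.8 ± 0.79 TPM) were also higher in MDA-MB-231. Families were therefore shared out by member, TBX2 and TBX3 to one line and TBX1 to the other.

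Cancer-testis antigens, genes of the germ line that tumours reactivate, were mostly on the Hs578T side among the members with enough counts: 15 of 18 tested were higher there and 3 in MDA-MB-231 (median -7.98, or -6.01 with genes at 0 set to their bound). PRAME was at 111 and 109 TPM in Hs578T with 0 counts in MDA-MB-231. MAGEA3 was at 136 ± 2.8 against 0.050 ± 0.071 TPM and MAGEA6 at 103 and 104 TPM with 0 counts in MDA-MB-231, and MAGEA12 at 89.6 ± 6.7 against 0.215 ± 0.0071 TPM. The MAGEA and CSAG genes are near-identical copies, so the split of reads among them is uncertain. XAGE1A and XAGE1D, higher in MDA-MB-231, carried identical values in each library, 26.6 ± 1.1 against 128 ± 2.4 TPM, so 2 of the 3 genes counted there are 1 measurement. SPANXB1 was at 0.075 ± 0.11 against 17.2 ± 0.078 TPM.

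Imprinted genes had 5 of 13 tested higher in Hs578T and 4 in MDA-MB-231. SNRPN (18.7 and 17.9 TPM) and MEG3 (12.5 and 11.2 TPM) had 0 counts in MDA-MB-231. The growth inhibitor CDKN1C was at 1.45 ± 0.042 against 12.2 ± 0.73 TPM and PEG10 at 7.66 ± 1.5 against 24.9 ± 0.88 TPM. GNAS was within 2-fold, at 1378 ± 21 against 1356 ± 15 TPM.

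The promoters of genes on in 1 line and off in the other were set beside those of genes at like levels for their CpG content. CpG-rich means a GC share above 0.5 and an observed over expected CpG ratio above 0.6 in the 300 bases. This held for 93.3% of 1743 genes within 0.2 on the log2 scale and at 10 TPM or more in both lines, and for 85.3% of all tested genes with a promoter. It held for 27 of 46 (58.7%) genes at 10 TPM or more in MDA-MB-231 and listed at 0 in Hs578T, and for 48 of 67 (71.6%) in the reverse case. Genes with 0 counts in all 4 libraries had 23.3%. In all, 67 genes of 10 TPM or more in MDA-MB-231 were listed at 0 in Hs578T, and 101 in the reverse direction. C4BPB, a complement inhibitor chain, was among the first, at 71.3 and 79.6 TPM, as was the bladder cancer noncoding RNA UCA1, at 87.4 and 92.7 TPM.

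Few cell cycle genes were over 2-fold apart. Of 38 tested G2/M genes 2 were higher in MDA-MB-231 and 1 in Hs578T, a share called of 7.89% against 35.1% of all genes. The spindle protein gene HMMR, at 141 ± 0.092 against 26.9 ± 0.78 TPM, was the one higher in Hs578T, and CCNA2 (138 ± 7.8 against 339.5 ± 3.5 TPM) and BUB1 (85.3 ± 3.2 against 215 ± 6.1 TPM) were higher in MDA-MB-231. The list median was 0.36, and TOP2A was at 367 ± 5.4 against 487 ± 16 TPM. Of 38 G1/S genes 6 were higher in MDA-MB-231 and 2 in Hs578T (median 0.55). UNG was at 25.9 ± 0.092 against 107 ± 4.8 TPM, and MCM5 and MCM3, subunits of 1 helicase, at 152 ± 4.1 against 78 ± 0.44 TPM and 142 ± 9.4 against 335 ± 1.8 TPM. MCM5 came under 2-fold on log2(TPM + 1) (-0.95) and MCM3 without Hs578T library 1 (0.98). On the TPM scale, where all genes moved by 0.178, 6 G2/M genes were higher in MDA-MB-231.

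Of 23 tested CDK inhibitors, cyclins and their partners 4 were higher in each line, a share called of 34.8% against 35.1% of all genes. CDKN2B, p15, was at 14.4 and 17.2 TPM in Hs578T with 0 counts in MDA-MB-231 (at least 267-fold), and so was its neighbour MTAP, at 16.3 and 15.8 TPM (at least 346-fold). CDKN2A between them had 1, 1, 0 and 0 counts and could be judged in neither line. CDKN1A, p21, was at 28.9 ± 0.44 against 95.6 ± 1.7 TPM, cyclin D3, CCND3, at 77.1 ± 1.5 against 302 ± 3.6 TPM, and cyclin D1, CCND1, was alike, at 299.5 ± 9.9 against 296 ± 0.98 TPM.

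In the BCL2 family 6 of 15 tested genes were higher in MDA-MB-231 and 1 in Hs578T. BCL2L1, which makes the survival protein BCL-XL, was at 93.5 and 84.8 TPM in Hs578T and 414 and 432 TPM in MDA-MB-231 (log2 difference 2.05 ± 0.04). BCL2 itself was at 5.4 and 4.34 TPM in MDA-MB-231 with 0 counts in Hs578T. Of the death-promoting members, PMAIP1 at 33 ± 0.70 against 181 ± 0.81 TPM, BAK1 at 38.2 ± 0.48 against 111 ± 3.5 TPM, BCL2L11 at 5.21 ± 1.7 against 15.6 ± 0.73 TPM and BIK at 10.7 and 6.6 TPM with 0 counts in Hs578T were higher in MDA-MB-231, and BMF was higher in Hs578T, at 8.55 ± 0.11 against 4.64 ± 0.75 TPM. BMF came under 2-fold without MDA-MB-231 library 1 (-0.89) and on log2(TPM + 1) (-0.77). The others tested, BAX, BBC3, BAD, BID and BOK, were called in neither line. Of 23 DNA repair genes 3 were higher in Hs578T and 0 in MDA-MB-231: XRCC1 (76.2 ± 1.7 against 25.8 ± 1.0 TPM), CHEK2 (31.3 ± 2.9 against 13.7 ± 0.60 TPM) and XPC (24.8 ± 2.3 against 12.6 ± 0.90 TPM, under 2-fold on log2(TPM + 1), at -0.92).

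Some glutathione peroxidases, the family of the gene that the rest of the series depletes, were over 2-fold apart at baseline. GPX1 was at 232 and 232 TPM in the Hs578T libraries and 594 and 634 TPM in the MDA-MB-231 libraries, with no overlap (log2 difference 1.21 ± 0.04, adjusted p 2.58e-16, edgeR). GPX3, the secreted enzyme, was at 0.42 and 0.77 TPM in Hs578T and 263 and 265 TPM in MDA-MB-231 (log2 difference 8.58 ± 0.11). GPX4, which reduces lipid peroxides in membranes, was within 2-fold, at 538 ± 7.8 against 523 ± 0.16 TPM, and GPX7 of the endoplasmic reticulum was higher in Hs578T, at 43.3 ± 4.5 against 10 ± 0.74 TPM. GPX2, an epithelial enzyme, had 0 counts in all 4 libraries. Of 20 tested peroxidases and selenoproteins 6 were higher in Hs578T and 2 in MDA-MB-231, a share called of 40% against 35.1% of all genes. The 2 higher in MDA-MB-231 were GPX1 and GPX3.

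Genes of glutathione use and of the NRF2 programme were on the Hs578T side, 16 of 35 tested against 4 in MDA-MB-231 (median -0.63). AKR1C1 and AKR1C2, near-identical aldo-keto reductases whose reads may have been shared out, were at 911 ± 2.4 against 11.9 ± 1.8 TPM and 34.2 ± 14 against 0.715 ± 0.050 TPM. SLC7A11, the cystine importer, was at 39.6 ± 1.0 against 3.65 ± 0.13 TPM (log2 difference -3.63 ± 0.06) and NQO1, a quinone reductase, at 726 ± 9.4 against 221 ± 3.1 TPM. GSTP1 was at 1059 ± 2.7 against 438 ± 13 TPM, and GSTT1 was at 33.1 and 34.1 TPM with 0 counts in MDA-MB-231. NFE2L2, the gene of NRF2 itself, was at 116 ± 3.8 against 168 ± 4.1 TPM. MGST2 (7.17 ± 0.13 against 41.9 ± 6.4 TPM) and GSTM2 (1.88 ± 1.2 against 14.3 ± 2.3 TPM) were among the 4 higher in MDA-MB-231, and the GSTM genes are close copies.

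Of 16 tested peroxide and superoxide genes 2 were higher in MDA-MB-231 and 1 in Hs578T. TXNIP, the inhibitor of thioredoxin and of glucose uptake, was at 3.33 and 2.67 TPM in Hs578T and 192 and 184 TPM in MDA-MB-231, and extracellular SOD3 at 0.62 ± 0.014 against 21.2 ± 2.0 TPM. PRDX5 was at 586 ± 16 against 253 ± 0.22 TPM, and PRDX1 was alike, at 1041 ± 15 against 885 ± 4.0 TPM. Of 21 ferroptosis genes 4 were higher in MDA-MB-231 and 2 in Hs578T, with FADS2 at 10.1 ± 1.3 against 59.5 ± 1.1 TPM, the iron exporter SLC40A1 at 0.70 ± 0.21 against 7.35 ± 0.099 TPM and the zinc and iron importer SLC39A14 at 238 ± 11 against 83 ± 0.45 TPM. Metallothioneins MT1M (44.9 ± 3.9 against 0.445 ± 0.0071 TPM) and MT1F (18.5 and 12.3 TPM in MDA-MB-231, 0 counts in Hs578T) were opposite, in a family of near-identical copies.

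The lactate carriers SLC16A1 and SLC16A3 went in opposite directions. SLC16A1 was at 146 and 144 TPM in Hs578T and 0.59 and 0.66 TPM in MDA-MB-231, and its paralogue SLC16A3 at 47.5 and 44 TPM and 478 and 500.2 TPM (log2 differences -8.04 ± 0.08 and 3.23 ± 0.04). The glucose carriers SLC2A1 and SLC2A3 were both higher in MDA-MB-231, at 91.7 ± 0.76 against 425 ± 0.16 TPM and 0.145 ± 0.13 against 43.8 ± 1.7 TPM. The enzymes of glycolysis were alike by comparison, GAPDH at 5454 ± 60.3 against 5701 ± 74 TPM and ENO1 at 3765 ± 31 against 3006 ± 51 TPM. Of 25 tested glycolysis and lactate genes 5 were higher in MDA-MB-231 and 2 in Hs578T.

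Serine synthesis differed at its first step. PHGDH, which diverts a glycolytic intermediate into serine, was at 320.3 and 320.2 TPM in Hs578T and 1.15 and 1.21 TPM in MDA-MB-231 (log2 difference -8.26 ± 0.08, adjusted p 1.47e-25, edgeR). The next enzymes differed little: PSAT1 was at 110.3 ± 2.1 against 86.9 ± 4.4 TPM and PSPH at 22.2 ± 2.8 against 34.5 ± 4.6 TPM, both within 2-fold. GLUL, glutamine synthetase, was at 0.155 ± 0.021 against 42.5 ± 0.23 TPM, and ASNS, asparagine synthetase, at 91.3 ± 3.9 against 24.5 ± 2.7 TPM. Of 14 tested aldehyde dehydrogenases 3 were higher in Hs578T and 2 in MDA-MB-231, a share called of 35.7% against 35.1% of all genes. ALDH1A3 and ALDH1L2 (34.9 ± 0.24 against 0.195 ± 0.050 TPM) were on the Hs578T side and mitochondrial ALDH2 on the other, at 0.10 ± 0.14 against 94.1 ± 0.45 TPM. Of 32 sterol and fatty acid genes 5 were higher in MDA-MB-231 and 4 in Hs578T. SQLE, squalene epoxidase, was at 95.1 ± 1.4 against 21.1 ± 1.1 TPM, and the isomerase EBP later in the same pathway at 14.1 ± 1.3 against 142 ± 5.0 TPM.

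Ribosomal protein genes were alike in level and leaned one way. Of 76 tested 5 were over 2-fold higher in Hs578T and 0 in MDA-MB-231, a share of 6.58%, yet 53 passed as higher in Hs578T and 13 as higher in MDA-MB-231 (median -0.37, and between -0.41 and -0.17 under the other settings). RPL7 was at 584 ± 4.4 against 172 ± 5.0 TPM and RPL8 at 4174 ± 82 against 1992 ± 52 TPM, both higher in Hs578T. RPS18 was at 2603 ± 39.9 against 3435 ± 33 TPM. The summed TPM of the list was 95600 and 96900 in the Hs578T libraries against 83200 and 83300 in those of MDA-MB-231.

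The differences were also set out by position in the genome. By chromosome, with the order of genes taken from RefSeq (GRCh38.p14), the median log2 difference ran from -0.75 on chromosome 22 and -0.64 on chromosome 8 to 0.62 on chromosome 14. On chromosome 22, 37.6% of 340 tested genes were higher in Hs578T and 7.06% in MDA-MB-231. On chromosome 8 the shares were 34.2% and 11.3% of 479 genes, and on chromosome 21 they were 34.3% and 10.9% of 137 genes (median -0.51). On chromosome 14, 29.4% of 445 genes were higher in MDA-MB-231 and 11.9% in Hs578T. These 4 medians kept their sign under every setting tried. Over those settings they ran from -0.79 to -0.51 on chromosome 22, from -0.67 to -0.41 on chromosome 8, from -0.53 to -0.32 on chromosome 21 and from 0.59 to 0.78 on chromosome 14. DNA copy number was not measured.

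**Figure D5:**
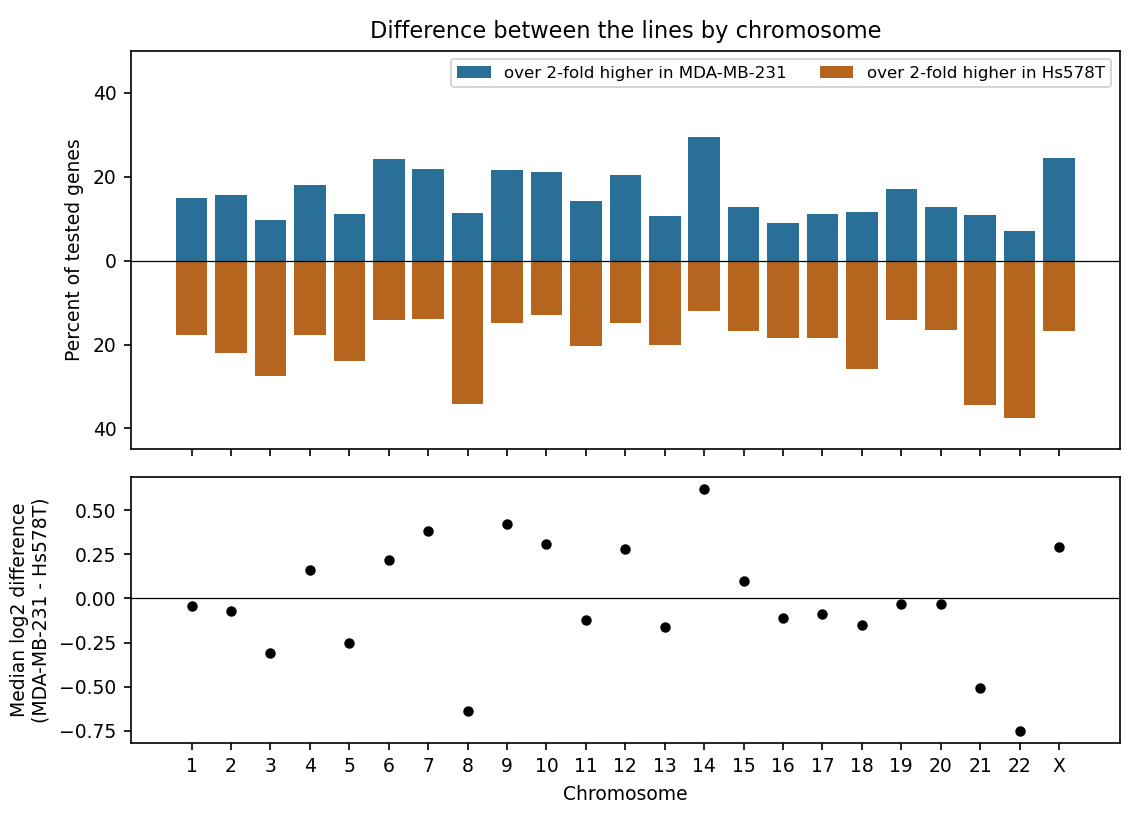
Upper: percent of the tested genes on each chromosome that were over 2-fold higher in MDA-MB-231 (up) or Hs578T (down). Lower: median log2 difference per chromosome, from -0.75 on chromosome 22 to 0.62 on chromosome 14.

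At a finer scale, 460 blocks of 25 neighbouring genes at 5 TPM or more in a line had a median of block medians of 0.03, with 59 blocks under -0.5 and 64 over 0.5. The lowest block lay on chromosome 9 between NFIB and ACO1, with a median of -1.85. It holds MTAP, CDKN2B and KLHL9 (32 and 33.7 TPM in Hs578T), which were all listed at 0 in MDA-MB-231. On chromosome 3 the 25 genes from IQCB1 to OSBPL11 all had a fitted value below 0 (median -1.19), as had 23 of 25 from ATP1B3 to PFN2 (-1.40) and 24 of 25 from BOC to GOLGB1 (-1.18). On chromosome 12 the 25 genes from KDM2B to CDK2AP1 all had one above 0 (median 1.05). Other high blocks were PI16 to TAF8 on chromosome 6 (1.37) and ZNF14 to PLEKHF1, a zinc-finger cluster on chromosome 19 (1.36). Blocks were ranked by these medians, so their values are a description.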

How the data were processed

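RNA was measured in 4 control libraries, 2 of Hs578T and 2 of MDA-MB-231, made from total RNA (Qiagen RNeasy mini kit, per the labels' protocols). The submitters' processing notes name FastQC, RSEM 1.2.12 and build hg19. An aligner, trimming or strand setting is not given in the sources used here. The expected counts deposited by the authors are RSEM's estimates of reads per gene, in which a read that fits several genes is shared out. Between 94.74 and 94.88% of those above 0 were whole, and all were rounded. The TPM values deposited by the authors are the same estimates per effective length, scaled to a fixed total. Groups were read from the sample titles.

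Genes were kept by filterByExpr, scaled by TMM (factors of 0.9103 and 0.9144 in Hs578T, 1.0964 and 1.0958 in MDA-MB-231) and compared by edgeR's quasi-likelihood test with 2 residual degrees of freedom and Benjamini-Hochberg adjustment over 13990 genes. The biological coefficient of variation was 0.0283. The standard error is the absolute log2 difference over the square root of F, which understates the error of large differences. Where a line held 0 counts, a fold is a lower bound against a floor of 3 counts over its group, and at 1 to 3 counts a ratio has a 95% interval. Both cover counting error only. Library pairs of a line differed by more than sampling noise (mean chi-square per gene 1.97 and 1.71) and were counted as 2.

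The lines, the gene lists and the comparisons were chosen with earlier results of these data known. Named were the 20 genes per direction with the largest difference at 20 CPM or more in the higher line. From each list came up to 5 per direction by size of difference at 5 TPM or more and the 4 most abundant, with lists of up to 16 genes given whole. The 10 most abundant genes of each line, the 10 most abundant genes per direction listed at 0 in the other line, and paralogues over 2-fold apart in opposite directions were also named, and uncharacterised loci and small RNAs were passed over. Some genes that the rule names are not reported here. Named outside this rule, after their values were seen, were ACO1, AMOT, ANXA2, ATP1B3, BBC3, BCL2, BID, BOC, CD3E, CD79A, CDH1, CDK2AP1, CDKN2A, COL15A1, COL4A1, COL4A4, DDR1, DES, DUSP2, EEF1A1, ELF3, ESRP1, FOS, FOSB, FOXA1, GATA3, GOLGB1, GPX2, GRHL2, HERC6, HOTAIR, HOXA11, HOXA13, HOXA2, HOXA4, HOXA5, HOXC6, HOXD1, HOXD3, HOXD4, IQCB1, IRF9, JUN, KDM2B, KLHL9, KRT5, KRT6A, KRT6B, LOX, MAGEA12, MFAP5, MS4A1, MUC1, MYH11, MYOD1, MYOG, NFE2L2, NFIB, OAS1, OASL, OCLN, OSBPL11, OVOL1, OVOL2, PDGFRB, PDPN, PFN2, PI16, PLEKHF1, PRSS8, PSAT1, PSPH, PTPRC, RAB25, SOX4, STAT2, TAF8, TCF21, YAP1 and ZNF14. RefSeq tables (GRCh38.p14) gave names, chromosomes and gene order for 13935 of the tested genes (99.6%), and promoter sequences. Files and tables are on different builds, so no position was carried from one to the other. Promoters of HLA-DRA, CIITA, MYOCD, THY1, EPCAM and CDH1 were not used here.

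The fit was tested on simulated data for 13734 genes with 50 seeded at each size. It recovered 56% of differences of 1.25-fold, 72% of 1.5-fold, 88% of 2-fold and 100% of 4-fold. Of its calls 11.2% were false, more than the adjusted p threshold of 0.05 allows. All genes not seeded were simulated without a difference, whereas 82.9% of genes passed in the data. The share of false calls in the data was therefore not measured. Replicate numbers come from the titles, and deviations of same-numbered libraries had a correlation of 0.0849 over the 2 pairs, so the numbers were not taken to pair the libraries. The alternatives were DESeq2 size factors and upper-quartile factors in edgeR, DESeq2, limma-voom, limma on log2(TPM + 1) and log2(TPM + 0.1), no filter, a filter of 5 CPM in 2 libraries, a fit on all 8 libraries, a replicate block, a test against a fold of 1.5, and leaving out each library. The models ran in edgeR 4.0.16, DESeq2 1.42.0 and limma 3.58.1 under R 4.3.3. Tables and plots were made in Python 3.11.15 (pandas 2.3.3, matplotlib 3.10.9, numpy 2.4.6).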

Additional observations from a re-analysis of the deposited data

How the results depend on the processing

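The counts of genes over 2-fold apart, 2240 higher in MDA-MB-231 and 2677 higher in Hs578T, stayed within 1.5 times of these under every setting tried. The test against a fold of 1.5 left 3043 genes passing higher in MDA-MB-231 and 3397 in Hs578T, in place of 5810 and 5790. It asks for a larger difference by construction. With each library left out in turn, 5476 to 5687 and 5548 to 5643 genes passed, and 2207 to 2336 and 2661 to 2799 were over 2-fold apart. With the replicate block 5857 and 5823 genes passed, which leaves 1 residual degree of freedom, and of the genes named, gene SNAI1 no longer passed (adjusted p = 0.0525 by edgeR) while gene DDR1 (0.0314) and gene BAD (0.0274) came to pass, all within 2-fold. On log2(TPM + 1) the split was 6935 against 4744, and the median of all genes moved to 0.178. On log2(TPM + 0.1) it was 6873 against 4685 and 0.189. Of 336 named genes called over 2-fold apart, 19 came under 2-fold in at least 1 setting other than the test against a fold of 1.5, 16 of them on a TPM scale, and all 19 still passed. Counting the test against a fold of 1.5 as well, another 37 named genes, all within 2-fold, stopped passing in at least 1 setting. On both TPM scales 4 named genes changed sign: ANXA2 (0.01), CD44 (0.07), GAPDH (0.06) and HLA-B (0.08), and the cause was not tested. Of 1706 list counts under the alternatives, 58 moved by over 1.5 times. The list medians changed sign under at least 1 setting for basal markers (up to 1.04 with no filter), receptor tyrosine kinases and their ligands, interleukins, interferon-stimulated genes, aldehyde dehydrogenases, stem markers, serine synthesis, metallothioneins, and neural and leukocyte markers, so no direction is given for them. With 2 libraries a line, differences under 1.5-fold were often missed in simulated counts, and a gene with 0 counts may be expressed under the floor.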

Other observations

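Neural markers were included as genes of another cell lineage, and 4 of 11 tested were higher in MDA-MB-231 and 5 in Hs578T. TUBB3, the neuronal beta-tubulin, was at 369 and 363 TPM in Hs578T and 79.7 and 89.3 TPM in MDA-MB-231 (log2 difference -2.30 ± 0.04, SE). L1CAM, an adhesion molecule of axons, was at 12.2 and 12.2 TPM in Hs578T and 44.8 and 48.4 TPM in MDA-MB-231 (log2 difference 1.74 ± 0.07, SE). PMP22, a myelin gene of Schwann cells, was at 127 ± 9.3 against 73.4 ± 3.2 TPM, and MBP, the myelin basic protein gene, was at 66.3 and 66.3 TPM in MDA-MB-231 with 0 counts in Hs578T. PMP22 came under 2-fold on both TPM scales (-0.79) and in the fit on all 8 libraries (-0.97). It did so too without Hs578T library 1 (-0.96) and without MDA-MB-231 library 2 (-0.98). These myelin genes thus had fitted differences of opposite sign, that of PMP22 lying near 2-fold. ENO2, neuronal enolase, was at 82.6 ± 6.9 against 128 ± 3.1 TPM and was not called. Of the list, 13 members had too few counts to be tested.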
